A study of Mus musculus with 6 samples.

Results

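The genes described here are 41 genes of DNA damage signalling and repair, taken by symbol from a list that spans checkpoint kinases, homologous recombination, the Fanconi anaemia pathway, mismatch repair, end joining, and single-strand break and excision repair. All 41 were found among the 20637 genes listed in each of the 6 deposited tables. The tables come from poly(A) RNA of whole uteri of female mice at postnatal day 21, about the age of weaning. There were 3 libraries from Nat10 f/f mice (control, or f/f below), which carry floxed alleles of Nat10, and 3 from Nat10 d/d mice (deleted, or d/d). Nat10 encodes the enzyme that places acetyl marks on cytidines of RNA, and the comparison asks which transcripts differ in the uterus when it has been deleted. The labels name no strain, litter, Cre driver, deleted exon or cell type of deletion, so it is not known in which uterine cells the gene was lost. They also do not say whether a library is 1 uterus or a pool.

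Cells that meet a DNA break stop dividing and mend it by one of several routes. The kinases ATM and ATR sense breaks and stalled replication forks and signal through CHEK2 and CHEK1. Homologous recombination copies the sister chromatid and therefore works in S and G2 phase, while non-homologous end joining can act throughout the cell cycle. Many recombination and Fanconi genes are transcribed mainly in dividing cells, whereas ATM and the core end-joining factors also act in resting cells. In a tissue the level of a repair transcript therefore also depends on how many cells are cycling.

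Values are FPKM, sequenced fragments divided by transcript length and library size, so levels can be compared between genes. Estimated relative depth lay between 0.805 and 1.016 of that of control replicate 1, and the absolute depth is unknown. Nat10 itself was listed at 13.2, 16.4 and 9.95 in the 3 controls and at 5.57, 5.23 and 5.53 in the deleted libraries, without overlap. All 15 uterine markers examined were above 0 in every library, but not all were at similar levels in the groups. Without overlap, 3 were lower in d/d uteri (Pgr, Foxa2 and Wnt5a) and 1 was higher (Wnt7a). The groups overlapped for the rest. Pgr was at 60.3 to 73.8 in f/f uteri and 25.4 to 35.3 in d/d uteri, and Wnt7a at 9.65 to 13.8 and 14.8 to 24.7. Whether the cell makeup of the uteri differed was not tested. Summed levels of other tissues overlapped between the groups for blood, fat, oviduct, skeletal muscle and leukocytes. Those of ovary were 29.1 to 30.1 in f/f uteri and 18.6 to 25.0 in d/d uteri, with Zp3, Cyp19a1 and Oosp1 at 0 throughout. Foxl2 alone made up nearly all of that sum, at 26.7 to 28.9 and 18.1 to 24.0. Blood genes summed to between 851 and 5581 in f/f uteri and between 709 and 1723 in d/d uteri. Fat genes summed to 51.0 in control replicate 1 and to between 0.98 and 9.88 in the remaining libraries.

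Deleted replicate 2 stood apart from the rest in genes of cell division, and this bears on most results below. All 20 genes of an S phase list and all 20 of a mitosis list were highest in it. Mki67, a marker of cycling cells, was listed at 10.7, 2.47 and 7.57 in the controls and at 2.3, 24.0 and 1.28 in deleted replicates 1, 2 and 3. In deleted replicates 1 and 3 together, 15 of the 20 S phase genes and 15 of the 20 mitosis genes lay below every control. In whole tissue, more cycling cells and more RNA per cycling cell cannot be told apart.

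Many repair genes were also highest in deleted replicate 2. Of the 41, 29 were highest in deleted replicate 2. Among the 35 that passed the filter on low values (at least 1 FPKM in at least 3 libraries), the count was 23, or 65.7%, beside 30.1% of the 12640 genes tested. In 8 of the 41, deleted replicates 1 and 3 both lay below every control. Of the members tested, 5 did so (14.3%), beside 14.4% of all genes. Both features together were found in 4 tested members (11.4%: Chek1, Rad54l, Xrcc6 and Parp1), beside 6.77% of all genes. The median member was 0.46 above the control mean on the log2(FPKM + 1) scale in deleted replicate 2. In deleted replicates 1 and 3 the median was 0.00 and -0.09. The part that cycling cells play in these levels was not tested.

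**Figure D1:**
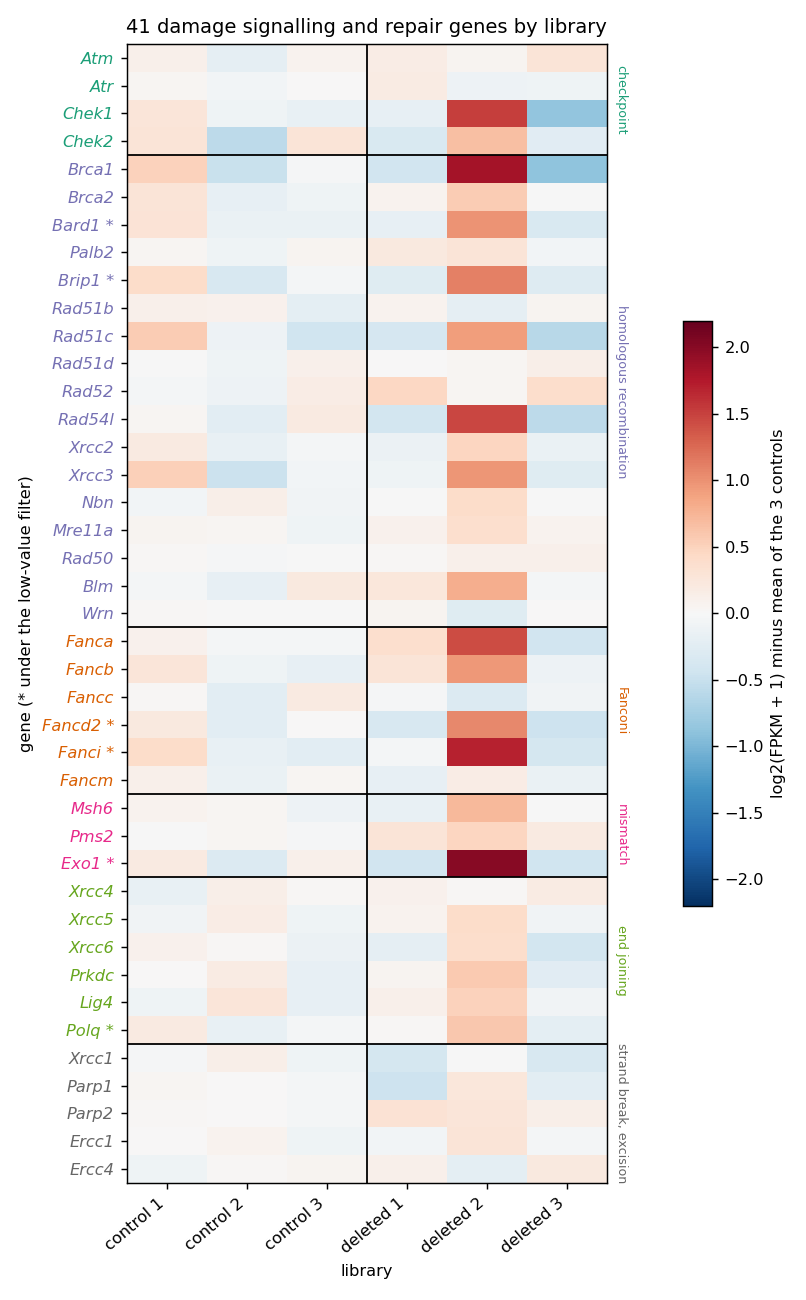
Level of each of the 41 genes (rows, grouped by class) in the 6 libraries (columns), as log2(FPKM + 1) minus the mean of the 3 controls. Red marks a level above the control mean and blue one below it. The column of deleted replicate 2 is red for most genes, with the deepest colours for Exo1, Brca1, Fanci and Chek1, while Atm, Atr, Rad51d and Rad50 are pale throughout.

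The comparison of the groups called no member. None of the 35 tested members, and 0.0% of all genes tested, passed an adjusted p of 0.05 in limma. The adjusted p of members ranged from 0.922 to 0.999. Nat10 itself, with a log2 change of -1.11, was not called either. Its limma adjusted p of 0.669 was the smallest value reached by any gene. The lack of calls therefore does not show that members were unchanged. At an unadjusted p under 0.05 there was 1 member, Pms2, beside 4.98% of all genes (630 of 12640). Groups did not overlap for 3 members, all higher in deleted uteri (Mre11a, Pms2 and Parp2), beside 10.7% of all genes in either direction, 6.12% higher and 4.6% lower. Those shares of members, 2.86% and 8.57%, are near the background. The median log2 change was 0.13 over members (26 above 0 and 9 below) and 0.03 over all genes (56.6% above 0). Since 3 libraries against 3 cannot give an exact permutation p below 0.1, single genes were judged by the fit across all genes.

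Leaving out deleted replicate 2 moved single members but again called none, beside 0.0949% of all genes (12) at an adjusted p under 0.05 in limma. The median change over members became -0.01, with 17 above 0 and 18 below. At an unadjusted p under 0.05 there were 5 members (14.3%), beside 13.7% of all genes. These were Rad52, higher in deleted replicates 1 and 3 than in f/f uteri, and Rad54l, Xrcc6, Xrcc1 and Parp1, which were lower. Their adjusted p in limma lay between 0.245 and 0.341. Groups then did not overlap for 11 members (31.4%), beside 31.8% of all genes, of which 6 were higher and 5 lower.

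**Figure D2:**
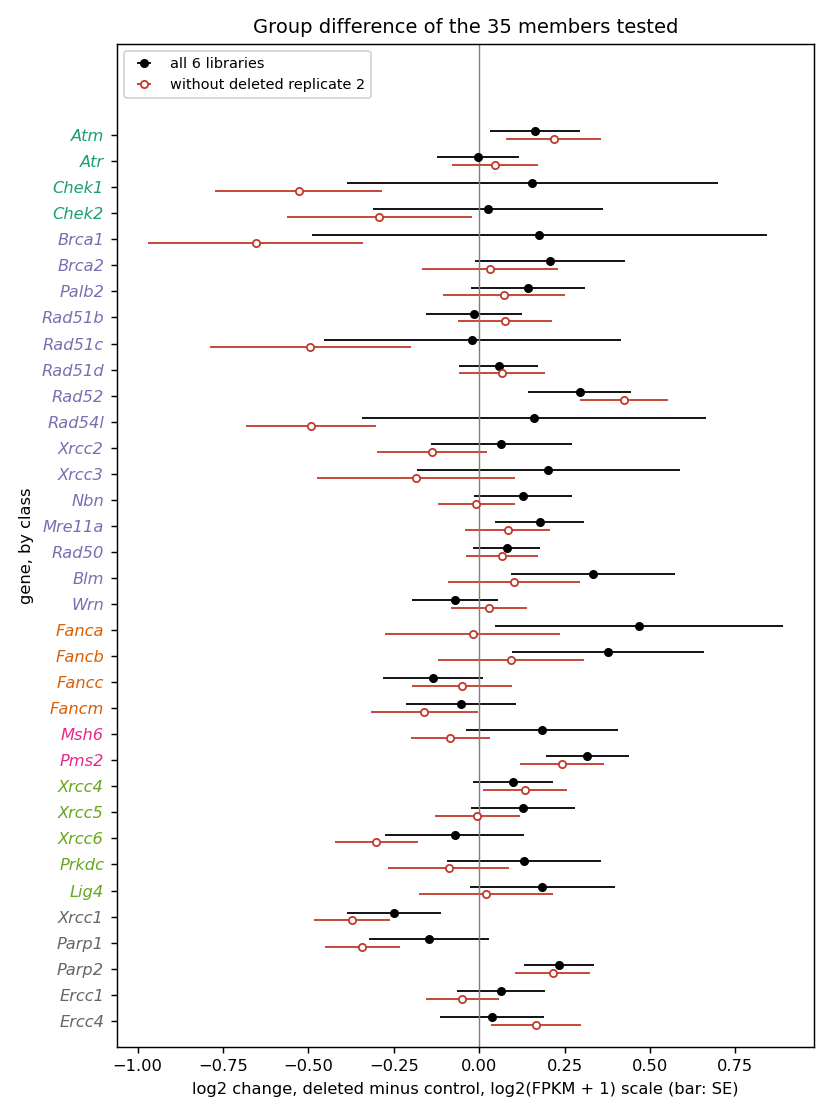
Log2 change (deleted minus control, on the log2(FPKM + 1) scale) of the 35 tested members with its standard error, from all 6 libraries (black) and without deleted replicate 2 (red, open). Most black points lie within 0.35 of 0. The red point lies on the negative side for 18 of the 35, among them Brca1, Chek1, Rad54l, Rad51c and Chek2.

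The checkpoint kinases divided into 2 kinds. The apical kinases Atm and Atr were steady across libraries. Atm (ENSMUSG00000034218, chr9:53439149-53536740, minus strand) was listed at 7.55, 5.94 and 7.41 FPKM in f/f uteri and at 7.86, 7.24 and 8.6 in d/d uteri. The groups overlapped, and its log2 change of 0.16 (SE 0.13; limma adjusted p 0.929) was the one with the smallest p in this class. Atr, which responds to stalled forks, was at 9.1, 8.47 and 8.93 in f/f uteri and 10.2, 8.14 and 8.25 in d/d uteri, a log2 change of -0.0034.

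The effector kinases were not steady. Chek1 (ENSMUSG00000032113, chr9:36708482-36727065, minus strand), the target of ATR that restrains entry into mitosis, was at 3.25, 2.3 and 2.17 in f/f uteri. In deleted replicates 1, 2 and 3 it was at 2.12, 9.17 and 0.932. Deleted replicate 2 held 3.57 times the control mean, and the other deleted libraries lay below every control. Its difference on the log2 scale was 0.16 (SE 0.54) with all libraries and -0.53 without deleted replicate 2, with a limma adjusted p of 0.396 then. Chek2, the target of ATM, was at 3.58, 1.54 and 3.6 in f/f uteri and 2.01, 4.96 and 2.15 in d/d uteri. Only deleted replicate 2 lay outside the control range of Chek2.

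Among genes of homologous recombination, Brca1 had the widest range. BRCA1 and its partner BARD1 form a ubiquitin ligase that opens the way for recombination at a break. Brca1 (ENSMUSG00000017146, chr11:101488764-101551955, minus strand) was at 2.31, 0.641 and 1.28 in f/f uteri and at 0.729, 7.26 and 0.25 in d/d uteri. Its highest library held 29.0 times its lowest, the widest range among the 41, and both extremes were deleted libraries. Its difference on the log2 scale was 0.18 (SE 0.67; limma adjusted p 0.989), and -0.65 without deleted replicate 2.

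Bard1 was at 1.57, 0.884 and 0.888 in f/f uteri and 0.843, 3.16 and 0.65 in d/d uteri. Brip1, a helicase that binds BRCA1, was at 1.45, 0.449 and 0.79 in f/f uteri and 0.535, 2.98 and 0.514 in d/d uteri. Both failed the filter on low values, so the group comparison with that filter did not include them. Brca2, a mediator of strand exchange, varied less, from 1.21 to 2.06 in f/f uteri and from 1.5 to 2.7 in d/d uteri. Palb2, the bridge between BRCA1 and BRCA2, was at 1.28 to 1.54 in f/f uteri and 1.33 to 1.97 in d/d uteri, so the groups overlapped for both.

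Rad51b, Rad51c, Rad51d, Xrcc2 and Xrcc3, a family of recombination mediators, did not move as 1. Rad51c was at 3.04, 1.54 and 1.02 in f/f uteri and 1.12, 4.22 and 0.792 in d/d uteri. Xrcc3, the partner of RAD51C, was at 2.63, 0.804 and 1.42 and at 1.34, 3.95 and 1.08. Xrcc2 ranged from 2.65 to 3.66 in f/f uteri and from 2.66 to 4.64 in d/d uteri, with its highest value in deleted replicate 2. Rad51b and Rad51d, by contrast, stayed within 1.28 times and 1.20 times from lowest to highest library. Rad51b was listed at 6.77 to 8.67 FPKM and Rad51d at 6.12 to 7.36, both above every value of Rad51c.

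Rad54l, a motor protein that drives strand exchange, was at 2.21, 1.65 and 2.59 in f/f uteri and at 1.36, 7.64 and 1.09 in d/d uteri. Deleted replicate 2 thus held 3.55 times the control mean, and the other deleted libraries lay below every control. Of its exons, 15.4% of the bases overlap Lrrc41 on the opposite strand. Since the strand setting of the counting is not given, reads of the 2 genes may be mixed. Lrrc41 itself was listed at 21.9 to 26.3 across the 6 libraries and did not share that pattern.

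Rad52 (ENSMUSG00000030166, chr6:119902698-119922828, plus strand) anneals single strands and had the smallest p among recombination genes. It was at 6.56, 6.2 and 7.68 in f/f uteri and at 9.71, 6.98 and 9.2 in d/d uteri. Deleted replicates 1 and 3 lay above every control, and deleted replicate 2 lay inside the control range. The difference on the log2 scale was 0.29 (SE 0.15; limma adjusted p 0.922), and 0.42 without deleted replicate 2 (limma adjusted p 0.245).

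The MRN complex, which tethers broken ends and activates ATM, was steadier. Mre11a (ENSMUSG00000031928, chr9:14784654-14837123, plus strand), its nuclease, was at 5.75, 5.72 and 5.06 in f/f uteri and 5.92, 7.37 and 5.86 in d/d uteri. The groups did not overlap as deposited but did so under quantile normalization, median centring and upper-quartile scaling. The gap between them was narrow, from 5.75 to 5.86, and the difference on the log2 scale was 0.18 (SE 0.13; limma adjusted p 0.926). Rad50, the structural subunit, had the narrowest range of all 41 genes, 10.9 to 11.3 in f/f uteri and 11.3 to 12.1 in d/d uteri. Nbn, which brings the complex to damaged chromatin, was at 14.3 to 16.6 in f/f uteri and at 14.98, 20.3 and 15.1 in d/d uteri. Of the RecQ helicases, Blm ranged from 1.39 to 2.15 in f/f uteri and reached 3.67 in deleted replicate 2. Wrn was lowest in that library, at 5.84 against 7.15 to 7.41 in f/f uteri.

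The Fanconi anaemia pathway repairs crosslinks between DNA strands. Its centre is the FANCD2 and FANCI pair, which a core complex with FANCA, FANCB and FANCC marks with ubiquitin. Fancd2 was at 1.25, 0.657 and 0.963 in f/f uteri and 0.517, 3.03 and 0.416 in d/d uteri, and Fanci was at 1.12, 0.428 and 0.371 and at 0.555, 4.2 and 0.232. Deleted replicate 2 held 3.17 times the control mean of Fancd2 and 6.58 times that of Fanci. For Fancd2 the other deleted libraries lay below every control. Both genes failed the filter on low values. Without that filter their log2 changes were 0.08 and 0.42 (limma adjusted p 0.986 and 0.943). In that fit 2 of the 41 members, Pms2 and Parp2, had an unadjusted p under 0.05, beside 5.29% of all genes. Of the exon bases of Fanci, 16.0% overlap Polg on the opposite strand, which was at 13.1 to 15.4 in all libraries.

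The core complex genes differed from each other. Fanca was at 1.15, 0.949 and 0.944 in f/f uteri and 1.61, 4.46 and 0.511 in d/d uteri, so the deleted libraries lay on both sides of the controls. Fancb (ENSMUSG00000047757, chrX:164980592-164997272, plus strand) had the smallest p in this class. It was at 2.17, 1.46 and 1.33 in f/f uteri and at 2.21, 4.06 and 1.44 in d/d uteri. Its difference on the log2 scale was 0.38 (SE 0.28; limma adjusted p 0.926) and fell to 0.09 without deleted replicate 2. Fancc was the most abundant gene of the class, at 9.38 to 12.97 in f/f uteri and 8.87 to 11.02 in d/d uteri. Of its exon bases, 16.4% overlap the antisense gene Gm16133 on the opposite strand, so reads may be mixed. Fancm, a translocase that recognises the blocked fork, was at 2.23 to 2.85 in f/f uteri and 2.16 to 2.99 in d/d uteri.

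Mismatch repair removes errors left by replication. Pms2 (ENSMUSG00000079109, chr5:143909964-143933968, plus strand), the nuclease subunit that cuts the faulty strand, had the smallest unadjusted p of the members tested. It was at 4.68, 4.92 and 4.59 in f/f uteri and 5.99, 6.9 and 5.57 in d/d uteri. The means were 4.73 ± 0.167 and 6.15 ± 0.681 (SD, n = 3), and every deleted library lay above every control. The difference on the log2 scale was 0.32 (SE 0.12; unadjusted p 0.0339, limma adjusted p 0.922), and 0.24 without deleted replicate 2. Of its exon bases, 4.9% are shared with Gm42421 on the same strand, so some reads could belong to either gene. Aimp2, whose start lies 117 bases away on the opposite strand, was at 23.3 to 27.95 in f/f uteri and at 23.3, 31.9 and 23.1 in d/d uteri.

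Msh6, which recognises single mismatches, was at 15.5, 15.1 and 13.6 in f/f uteri and 12.97, 24.8 and 14.6 in d/d uteri. Only deleted replicates 1 and 2 lay outside the control range, in opposite directions. Exo1 (ENSMUSG00000039748, chr1:175880581-175913489, plus strand) is an exonuclease of mismatch repair that also resects breaks. It was at 1.03, 0.44 and 0.927 in f/f uteri and 0.336, 6.1 and 0.318 in d/d uteri. Deleted replicate 2 held 7.64 times the control mean, the largest such ratio among the 41, and the other deleted libraries lay below every control. Exo1 failed the filter on low values.

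Non-homologous end joining starts with the Ku ring of XRCC5 and XRCC6, which recruits the kinase DNA-PKcs (Prkdc). Xrcc6 was at 23.9, 22.7 and 20.1 in f/f uteri and 19.1, 29.3 and 16.6 in d/d uteri, with deleted replicates 1 and 3 below every control. Xrcc5 was at 16.5, 19.8 and 16.3 in f/f uteri and 18.4, 23.3 and 16.4 in d/d uteri, and only deleted replicate 2 lay outside the control range. The subunits of 1 ring therefore did not share the low levels in deleted replicates 1 and 3. Prkdc was at 2.97, 3.51 and 2.5 in f/f uteri and 3.16, 4.9 and 2.36 in d/d uteri. Mcm4, a replication helicase gene whose start lies 466 bases from that of Prkdc on the other strand, was at 14.8 to 16.4 in f/f uteri and at 11.8, 36.8 and 9.49 in d/d uteri.

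The ligation step was represented by 2 members. Lig4 (ENSMUSG00000049717, chr8:9969049-9977686, minus strand), the ligase, had the smallest p of the class. It was at 1.44, 2.1 and 1.3 in f/f uteri and 1.81, 2.7 and 1.46 in d/d uteri, a log2 change of 0.18 (SE 0.21; limma adjusted p 0.951) with overlapping groups. Its cofactor Xrcc4 was at 11.6, 14.3 and 13.3 in f/f uteri and 13.9, 13.3 and 14.9 in d/d uteri. Polq, the polymerase of an alternative end-joining route, failed the filter on low values and was at 0.619 to 1.08 in f/f uteri and at 0.835, 1.72 and 0.556 in d/d uteri.

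In the repair of single-strand breaks, Parp1, which senses breaks and builds poly(ADP-ribose) chains, was at 32.4, 31.5 and 30.6 in f/f uteri and 22.7, 37.4 and 26.7 in d/d uteri. Deleted replicates 1 and 3 lay below the tight control range and deleted replicate 2 above it. Xrcc1, the scaffold that PARP activity recruits, was at 22.1, 24.5 and 20.97 in f/f uteri and 16.9, 22.4 and 17.4 in d/d uteri. Its difference on the log2 scale was -0.25 (SE 0.14; limma adjusted p 0.922), and -0.37 without deleted replicate 2 (limma adjusted p 0.245).

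Parp2 (ENSMUSG00000036023, chr14:50807841-50821301, plus strand), a second break-activated polymerase, was higher in every deleted library. It was at 15.6, 15.4 and 14.9 in f/f uteri and 19.2, 18.7 and 16.7 in d/d uteri, or 15.3 ± 0.359 and 18.2 ± 1.29 (SD, n = 3). The difference on the log2 scale was 0.23 (SE 0.10; unadjusted p 0.0549, limma adjusted p 0.922) and 0.22 without deleted replicate 2. Parp1 and Parp2 thus differed in deleted replicates 1 and 3, where Parp2 was above and Parp1 below all controls. Ercc1 and Ercc4 form the nuclease that cuts beside bulky lesions and crosslinks. Ercc1 was at 16.6 to 18.6 in f/f uteri and 16.9 to 21.8 in d/d uteri. Ercc4 was at 4.03, 4.51 and 4.62 in f/f uteri and 4.82, 3.62 and 5.27 in d/d uteri, with its lowest value in deleted replicate 2.

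**Figure D3:**
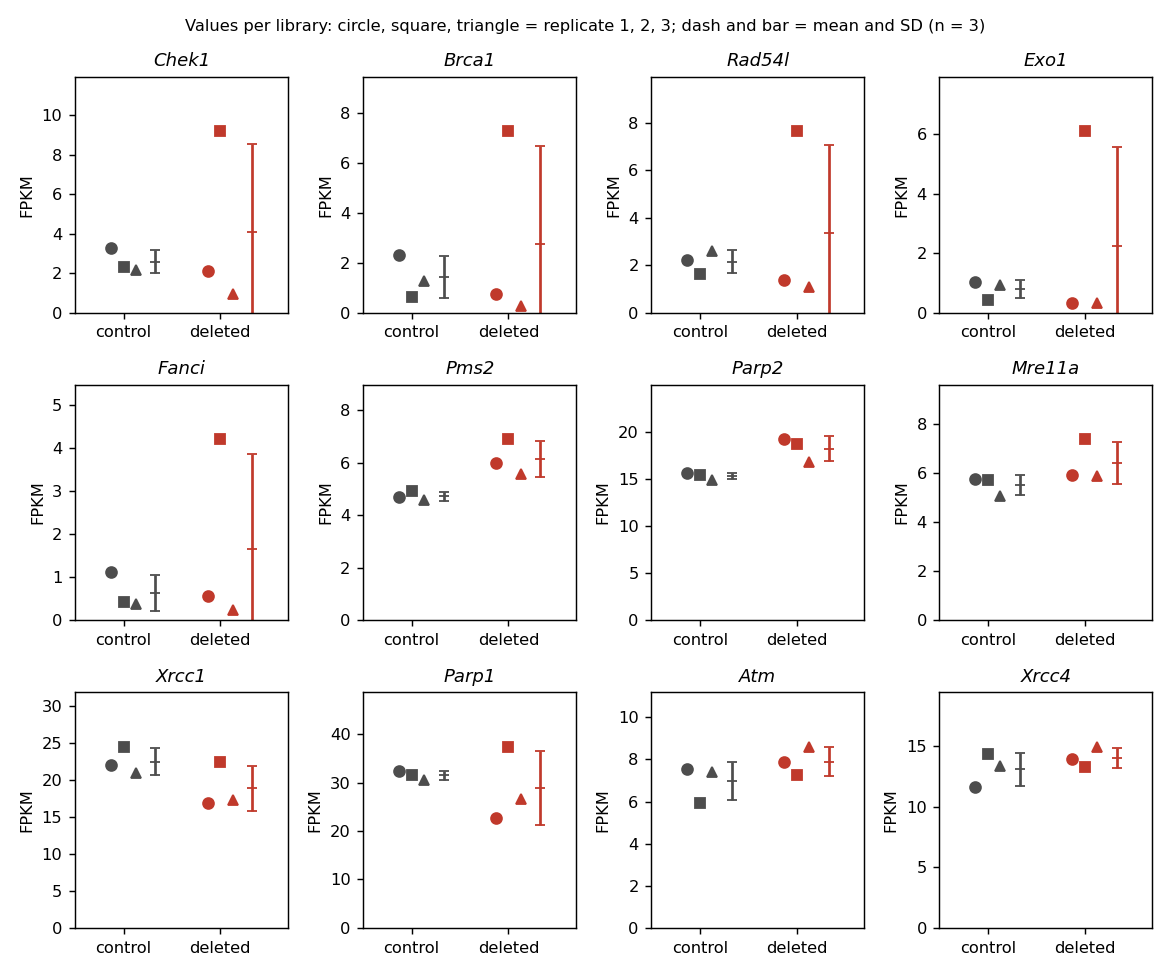
FPKM of 12 members in each library (control in grey, deleted in red; circle, square and triangle are replicates 1, 2 and 3), with the mean and SD of each group (n = 3; SD bars that would pass below 0 stop at the axis). Chek1, Brca1, Rad54l, Exo1 and Fanci have 1 high deleted library, replicate 2, while Pms2, Parp2 and Mre11a have all 3 deleted libraries above the controls.

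How closely each member followed S phase transcripts was measured over the 6 libraries against an S phase score. This score was the mean log2(FPKM + 1) of 20 replication genes, none of them a member. The score was 3.62, 3.12 and 3.16 in f/f uteri and 2.81, 4.86 and 2.48 in deleted replicates 1, 2 and 3. Of the 41 members, 32 had a Pearson r above 0. Among the 35 tested, 26 did (74.3%), beside 49.9% of all genes. After Benjamini-Hochberg adjustment over the 41, 15 passed 0.05 in a two-sided exact permutation test, that is, their exact p was 0.0139 or lower. Of these 15, 9 were among the 35 tested members (25.7%), beside 8.22% of all 12640 genes at that exact p. With adjustment over all genes tested, 0.0% of genes and none of the members passed, and the lowest adjusted p was 0.119 over all genes and 0.121 over members. Below, adjusted values of these correlations are over the 41, and passing refers to them. With Spearman's rho, which uses ranks only, 3 passed, Bard1, Fancd2 and Exo1 (each rho 1, exact p 0.00278, adjusted p 0.0380). All 3 failed the filter on low values. Of the 35 tested members, 0 reached that exact p of rho, beside 1.57% of all genes. All 3 also passed with r, which was 0.98, 0.99 and 0.97 (exact p 0.00139, the smallest 6 libraries allow, adjusted p 0.0190). The labels give no batch to split by, and a group of 3 is too small for a correlation within it.

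The members that passed with r came from every class, and whether classes differ was not tested. They were 7 of 17 recombination genes (Brca1, Bard1, Brip1, Rad51c, Rad54l, Xrcc2 and Xrcc3) and 3 of 6 Fanconi genes (Fancd2, Fanci and Fancm). Chek1 (r 0.99, exact p 0.00278, adjusted p 0.0190; rho 0.94, exact p 0.0167, adjusted p 0.0854) was 1 of 4 checkpoint genes. The others were Exo1 (1 of 3 mismatch genes), Xrcc6 and Polq (2 of 6 end-joining genes) and Ercc4 (1 of 5 strand-break and excision genes), which went the other way with r -0.97 (exact p 0.00278, adjusted p 0.0190; rho -0.94, exact p 0.0167, adjusted p 0.0854). Without the 2 libraries farthest from the median score, deleted replicates 2 and 3, r was recomputed over the remaining 4, which had also served to pick the 15, so that its sign is no independent support. It lay between 0.60 and 0.94 for the 14 positive members and was -0.97 for Ercc4.

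Among the other 26 members, r had the same sign over the 4 libraries in 12, and some relations rested on the 2 left out. For Prkdc, r was 0.85 with all libraries (exact p 0.0431, adjusted p 0.0891) and -0.21 over the 4. For Fanca it was 0.89 (exact p 0.0472, adjusted p 0.0891) and -0.46. Neither Atm (r -0.28) nor Atr (r -0.36) passed, nor did Rad51d (r -0.15), Parp2 (r 0.26) or Rad50 (r 0.29). The exact p of these 5 lay between 0.465 and 0.799 (adjusted p 0.516 to 0.799). With 6 libraries a weak relation could not have been detected.

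**Figure D4:**
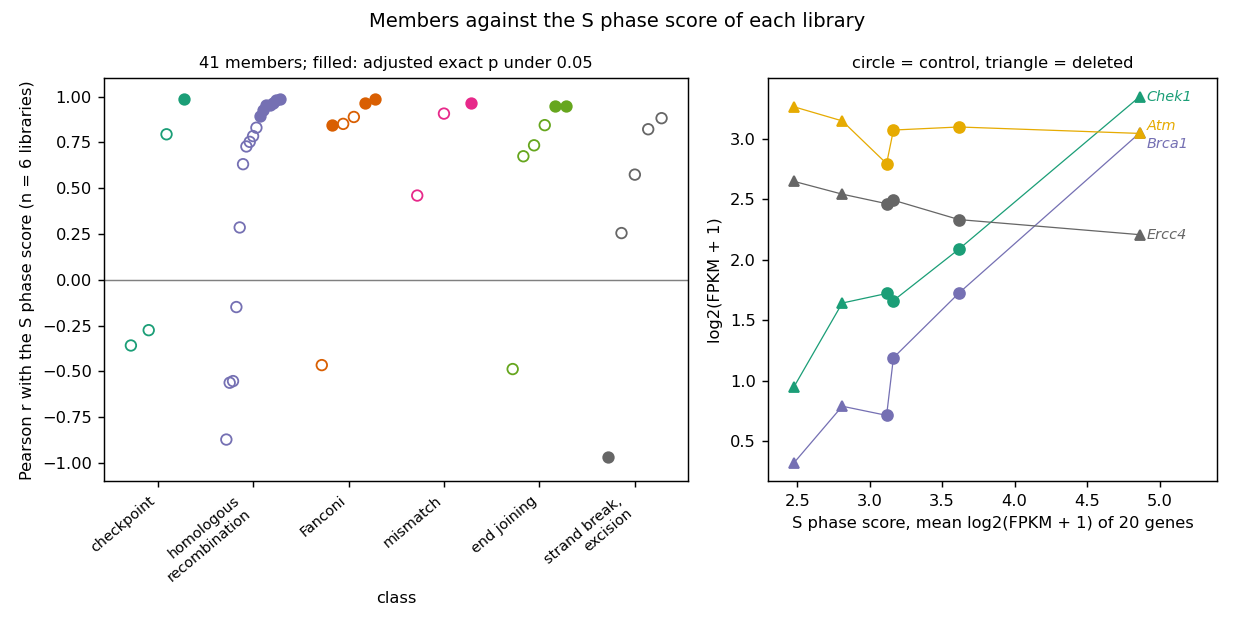
Left, Pearson r of each of the 41 members with the S phase score over 6 libraries, by class, filled where the exact p adjusted over the 41 is under 0.05. Right, log2(FPKM + 1) of 4 members against the score, where Chek1 and Brca1 climb with it, Ercc4 falls and Atm stays between 2.8 and 3.3.

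Promoters are shown because some members, though not all, moved together across libraries. RefSeq windows of 300 bases (250 before and 50 after the start, GRCm38.p6, 1 per gene) were found for 33 of the 41 members. They were searched on both strands for 3 short motifs known from cell-cycle promoters, none of which contains another. The first was the E2F motif (TTTCCCGC, TTTGGCGC, TTTCGCGC or TTTGCCGC), the second the CHR element (TTTGAA or TTCGAA), and the third the CCAAT box. An E2F motif stood in 6 of the 33 windows (18.2%), beside 2.3% of 27025 promoters of all genes. A CHR element stood in 3 (9.1%, beside 19.5%), and a CCAAT box in 20 (60.6%, beside 38.0%).

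The 6 windows with an E2F motif are given as 30 bases around it, 5′ to 3′ on the strand of the gene, with the motif in capitals. They lie at chr1:71103163-71103192 (Bard1, minus), chr5:150522442-150522471 (Brca2, plus) and chr5:110839820-110839849 (Chek2, plus). The others lie at chr17:87975054-87975083 (Msh6, plus), chr11:87404941-87404970 (Rad51c, minus) and chr15:82016312-82016341 (Xrcc6, plus).
Bard1: ccgccgctcagTTTCCCGCtcaggaagttt
Brca2: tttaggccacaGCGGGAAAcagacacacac
Chek2: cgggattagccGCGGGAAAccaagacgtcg
Msh6: ctcctcccgacTTTCCCGCcagcggcggcc
Rad51c: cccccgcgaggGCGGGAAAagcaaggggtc
Xrcc6: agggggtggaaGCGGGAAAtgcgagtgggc

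All 6 carry the same 8 letters, read on one strand or the other. Their r with the S phase score ran from 0.79 (Chek2) to 0.98 (Bard1), with a median of 0.92, and 3 of the 6 passed. Over the 27 windows without the motif, r ran from -0.97 to 0.99, with a median of 0.735, and 9 passed. For the CCAAT box the order of the medians was the opposite, 0.77 over the 20 windows with it and 0.83 over the 13 without. For the CHR element they were 0.95 over 3 windows and 0.81 over 30. The letters are a description of the sequence and not evidence of a bound factor.

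The members that followed the score most closely were Fancd2, Chek1 and Brca1, and those with r closest to 0 were Rad51d and Parp2. The 250 bases before the start of Chek1 (chr9:36726659-36726908, minus), Brca1 (chr11:101551956-101552205, minus) and Parp2 (chr14:50807666-50807915, plus) are shown as examples of each kind, with motifs in capitals. Starts here are those of RefSeq, and for Chek1 and Parp2 they lie inside the gene as annotated by GENCODE, downstream of the GENCODE start given above.
Chek1: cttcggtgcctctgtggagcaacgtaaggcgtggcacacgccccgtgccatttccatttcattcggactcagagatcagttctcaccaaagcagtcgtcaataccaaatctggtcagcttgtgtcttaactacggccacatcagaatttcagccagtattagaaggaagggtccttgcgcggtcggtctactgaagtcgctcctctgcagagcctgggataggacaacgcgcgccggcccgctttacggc
Brca1: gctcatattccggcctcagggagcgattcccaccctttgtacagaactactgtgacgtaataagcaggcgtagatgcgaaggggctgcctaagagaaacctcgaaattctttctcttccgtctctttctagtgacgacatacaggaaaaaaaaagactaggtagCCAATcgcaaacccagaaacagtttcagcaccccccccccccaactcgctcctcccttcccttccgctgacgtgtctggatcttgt
Parp2: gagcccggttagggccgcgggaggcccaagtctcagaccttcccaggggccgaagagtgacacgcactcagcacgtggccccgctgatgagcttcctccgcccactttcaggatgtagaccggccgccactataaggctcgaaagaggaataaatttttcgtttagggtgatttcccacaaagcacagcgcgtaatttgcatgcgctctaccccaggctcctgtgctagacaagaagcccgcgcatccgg

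Of the 3, only Brca1 held a motif, a CCAAT box. Neither Chek1, with one of the highest r, nor Parp2 held any of the letters searched. No match says only that those letters are not in this window. The searched window of Chek1 runs past the stretch printed and ends in ttttggcgggaa. That end holds TTTGGCGG, which differs from the searched TTTGGCGC in its last letter and so was not counted.

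Other genes of these pathways, 77 listed of 81 on the list, were examined in the same way. Of the 75 tested, 0 passed an adjusted p of 0.05 in limma and 3 had an unadjusted p under 0.05 (4.0%, beside 4.98% of all genes). Their median log2 change was 0.10, with 53 above 0 and 22 below. Of the 77, 48 were highest in deleted replicate 2, beside 30.1% of the 12640 genes tested. By class these were 10 of 15 checkpoint, 16 of 19 recombination, 5 of 11 Fanconi, 4 of 5 mismatch, 1 of 6 end-joining and 12 of 21 strand-break and excision genes. Among the members, the counts were 2 of 4, 12 of 17, 5 of 6, 3 of 3, 5 of 6 and 2 of 5. Whether the lists or their classes differ was not tested.

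Groups did not overlap for 8 of these 75 genes (10.7%, the same as the 10.7% of all genes), 6 higher and 2 lower in deleted uteri. Ddb2, which recognises ultraviolet damage, was at 9.52, 8.63 and 10.2 in f/f uteri and 14.4, 10.8 and 13.6 in d/d uteri (log2 change 0.41, limma adjusted p 0.922). Ogg1, the glycosylase that removes oxidised guanine, was at 7.66, 7.55 and 7.41 in f/f uteri and 9.1, 10.1 and 8.91 in d/d uteri (log2 change 0.28). Ercc5, an excision nuclease, had a log2 change of 0.23. Rif1, which protects ends from resection, had one of 0.24, Rmi1, a partner of BLM, 0.19, and Rnf8, a ubiquitin ligase at breaks, 0.14.

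The 2 lower genes were Mlh3, a mismatch repair partner, and Trp53bp1. Mlh3 was at 8.47, 7.73 and 7.76 in f/f uteri and 7.09, 5.78 and 7.07 in d/d uteri (log2 change -0.24). Trp53bp1, a chromatin reader that favours end joining, was at 14.7, 15.6 and 17.1 in f/f uteri and 14.1, 13.9 and 14.0 in d/d uteri (log2 change -0.16). For these 8 the limma adjusted p lay between 0.922 and 0.940, so none was called.

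Targets of p53, a factor that damage signalling activates, are given beside these values. Of 22 tested, 21 had a log2 change above 0 and 12 had every deleted library above every control, beside 6.12% of all genes. Their median log2 change was 0.59, and 0.40 without deleted replicate 2. Cdkn1a, the p53 target that blocks cyclin-dependent kinases, was at 3.68, 7.23 and 6.27 in f/f uteri and 33.9, 116 and 43.4 in d/d uteri. Of the 22, 17 were highest in deleted replicate 2, beside 30.1% of all genes. Neither the p53 targets (0 of 22) nor the repair genes (0 of 35) passed the adjusted threshold in limma. At an unadjusted p under 0.05 in limma there were 10 p53 targets and 1 repair gene, beside 4.98% of all genes. Whether Cdkn1a and the repair genes are linked was not tested.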

How the data were processed

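RNA was extracted with TRIzol and libraries made with the Illumina TruSeq RNA kit, per the labels' protocols. The submitters' processing notes name HISAT2 2.2.1, Cufflinks 2.2.1 and the mm10 build. The deposited values are taken to be FPKM made by the authors. That unit was inferred from the tool names and from the values, which are not whole and sum to 500764 to 549263 per library. Annotation, strand setting and gene filter are not given in the sources used here. Relative depth was estimated from the commonest ratio of the lowest values between libraries, and the deepest library was 1.262 times as deep as the shallowest. No 2 libraries held identical values.

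Genes with at least 1 FPKM in at least 3 libraries (12640) were analysed as log2(FPKM + 1) with limma 3.58.1 in R 4.3.3 (intensity trend in eBayes, no covariate). Tests are two-sided, with Benjamini-Hochberg adjustment over all genes tested and a threshold of 0.05. Fold changes on this scale understate changes of low genes. The fit was tested on simulated data. Nothing says that replicates are separate animals, so p-values measure only the spread between these libraries. The exact permutation test of r and rho enumerated all 720 orders. Coordinates are from GENCODE M21 (mm10) and promoters from RefSeq (GRCm38.p6). The members and lists were chosen with earlier results of these data known. Values of every library are given for members whose groups do not overlap, for the smallest p in each class, for the 3 widest ranges and to complete complexes. From other pathway genes, up to 8 without overlap were named, and the values of p53 targets were chosen after being seen. Python 3.11.15, pandas 2.3.3, numpy 2.4.6 and matplotlib 3.10.9 were used.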

Additional observations from a re-analysis of the deposited data

How the results depend on the processing

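No member passed an adjusted p of 0.05 under any setting tried: quantile normalization, median centring, upper-quartile scaling, a pseudocount of 0.1, no low-value filter, at least 1 FPKM in all 6 libraries, no trend, array quality weights, the replicate number as a block, or leaving out each library. Genes called over all genes were 0 except 316 with array quality weights, and 0 to 12 when 1 library was left out. Members at an unadjusted p under 0.05 numbered 2 with no low-value filter, 5 with array quality weights (14.3%, beside 29.5% of all genes), 0 with the replicate block, and 0 to 5 when 1 library was left out (without deleted replicate 2, 5, or 14.3% beside 13.7%; without deleted replicate 3, 4, or 11.4% beside 11.1%). Members without overlap numbered 2 (Pms2 and Parp2, without Mre11a) under quantile normalization, median centring and upper-quartile scaling (5.71%, beside 10.8% of all genes), and 5 to 11 when 1 library was left out (14.3% to 31.4%, beside 15% to 31.8% of all genes). The replicate numbers did not pair the libraries: deviations from the group means correlated at -0.34, -0.03 and 0.10 for numbers 1, 2 and 3.

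With array quality weights, which gave deleted replicate 2 a weight of 0.22 and deleted replicate 1 one of 3.74, the log2 change turned for Atr (0.13), Chek1 (-0.21), Chek2 (-0.32), Brca1 (-0.45), Rad51b (0.049), Rad54l (-0.34), Xrcc2 (-0.13), Xrcc3 (-0.16), Wrn (0.026), Msh6 (-0.12) and Ercc1 (-0.038). It also turned for Brca1 with a pseudocount of 0.1 (-0.068), for Rad51c under quantile normalization (0.017) and for Chek2 under median centring (-0.0026) and upper-quartile scaling (-0.0061). When 1 library was left out, log2 changes spanned 0 for 20 members: Atr (-0.096 to 0.047), Chek1 (-0.53 to 0.67), Chek2 (-0.29 to 0.20), Brca1 (-0.65 to 0.71), Rad51b (-0.12 to 0.075), Rad51c (-0.49 to 0.28), Rad54l (-0.49 to 0.53), Xrcc2 (-0.14 to 0.17), Xrcc3 (-0.19 to 0.47), Nbn (-0.0085 to 0.20), Wrn (-0.13 to 0.029), Fanca (-0.019 to 0.91), Fancm (-0.16 to 0.0089), Msh6 (-0.084 to 0.36), Xrcc5 (-0.0053 to 0.23), Xrcc6 (-0.30 to 0.091), Prkdc (-0.090 to 0.32), Parp1 (-0.34 to 0.0058), Ercc1 (-0.049 to 0.12) and Ercc4 (-0.054 to 0.17). Pms2 (0.24 to 0.38), Parp2 (0.20 to 0.29), Rad52 (0.21 to 0.42) and Xrcc1 (-0.37 to -0.18) kept their direction. With a mitosis score in place of the S phase score, 14 members passed instead of 15 (adjusted over the 41); 8 of them were among the 35 tested (22.9%), beside 6.19% of all genes at that exact p. With the S phase score and adjustment over all genes tested, a setting chosen after seeing the data, 0 of the 35 tested members passed. Depth is known only in relative terms, so no counting error can be given for members near or below 1 FPKM.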
